A study of Homo sapiens with 8 samples.

Results

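The genes described here are 7 matrix metalloproteinases (MMP1, MMP2, MMP3, MMP10, MMP13, MMP14 and MMP19) and 3 of their tissue inhibitors (TIMP1, TIMP2 and TIMP3). They were chosen by name from 23228 genes listed in the count tables, with the counts of the 4 groups already known. Of the 10, 9 were among the 13498 genes with enough counts to be tested, and MMP13 was not. RNA was sequenced in ES2, an established human ovarian cancer cell line, in 8 libraries, 2 for each of 4 groups. The groups were ES2 control cells with vehicle, ES2 KDM1A knockout cells with vehicle, ES2 control cells with LY500307, and ES2 KDM1A knockout cells with LY500307. LY500307 is a synthetic agonist of oestrogen receptor beta and was given at 5 µM, and every treatment lasted 48 h. KDM1A encodes a histone lysine demethylase. All groups share the parental line and the serum-containing medium, and the labels add no other allele or agent. The sources used here do not give where the gene was edited or whether the knockout cells are 1 clone or a pool, so loss of KDM1A and other differences between the cell populations cannot be told apart.

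Matrix metalloproteinases are zinc-dependent proteases that cut collagens, laminins, proteoglycans and other proteins outside the cell. Most are secreted as inactive precursors that another protease must cleave, and a few, among them MMP14, sit in the plasma membrane. TIMP proteins bind the active site and block it, TIMP3 while attached to the extracellular matrix. In ovarian cancer the balance of proteases and inhibitors is studied for its part in spread across the peritoneum. The values below are RNA levels only. In bulk RNA, fewer cells that express a gene and less RNA per cell cannot be told apart.

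Gene totals lay between 24348937 and 30131097 counts per library. Levels are CPM, counts relative to the library size after scaling by TMM, and comparisons between genes are per kilobase of exon. KDM1A stood at 219 to 241 CPM in the 4 control libraries and at 71.5 to 77.8 CPM in the 4 knockout libraries. Duplicates of a group differed by more than counting noise, their chi-square over its degrees of freedom lying between 3.05 and 4.30, and were kept as separate samples. Separate cultures are not mentioned for them in the sources used here, so SE and p-values reflect nothing but the spread between duplicates, which may be technical. With 2 libraries per group, a lack of overlap between groups is common even without a difference. Its share over all genes is not given here, so it is a description only. Levels of the listed epithelial markers were uneven in this line. Low were EPCAM at 0.419 to 2.13 CPM, PAX8 at 1.39 to 7.23 CPM, WT1 at 1.12 to 5.59 CPM and CDH1 at 0.280 to 1.32 CPM. The keratin genes KRT18 and KRT7 lay at 141 to 365 and 252 to 370 CPM, and KRT8 at 5.29 to 32.1 CPM. With vehicle KRT8 had 27.2 CPM in control and 7.44 CPM in knockout cells. KRT18, at 327 and 161 CPM, and EPCAM, at 1.49 and 0.564 CPM, were also lower in knockout cells. KRT7 went the other way, at 257 CPM in control and 364 CPM in knockout cells. So did PAX8, at 1.98 and 5.90 CPM, and WT1, at 1.75 and 5.22 CPM, while the CDH1 libraries overlapped.

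The promoters of members that stood apart between control and knockout cells are shown first, as far as the RefSeq promoter table (GRCh38.p14) holds them. It has entries for 4 of the 10 members: MMP10, MMP14, TIMP1 and TIMP3. Each was matched once to GRCh37, the build of the read counts. MMP10 and MMP14 stood higher and TIMP3 lower in knockout cells, and their 150 bases upstream of the RefSeq start site follow, 5′ to 3′ on the strand of the gene, with a TATA motif in capitals. The coordinates are chr11:102651360-102651509 on the minus strand for MMP10, chr14:23305644-23305793 on the plus strand for MMP14 and chr22:33197541-33197690 on the plus strand for TIMP3.
MMP10: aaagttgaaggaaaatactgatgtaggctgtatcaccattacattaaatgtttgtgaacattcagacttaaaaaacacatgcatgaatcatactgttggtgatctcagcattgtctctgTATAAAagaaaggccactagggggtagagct
MMP14: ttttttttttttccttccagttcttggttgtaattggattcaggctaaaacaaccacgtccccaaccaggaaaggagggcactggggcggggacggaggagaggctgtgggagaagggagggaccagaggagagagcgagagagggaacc
TIMP3: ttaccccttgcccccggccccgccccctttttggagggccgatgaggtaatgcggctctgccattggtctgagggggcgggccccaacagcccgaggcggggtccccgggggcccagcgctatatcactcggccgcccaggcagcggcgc
The 250 bases upstream of MMP10 were 34.4% G and C, those of MMP14 56.8%, those of TIMP1 64.8% and those of TIMP3 72.4%, against a median of 58.0% over all promoters in the table. In these 250 bases 3 motifs were searched on both strands. The AP-1 site TGAGTCA occurred in 4.2% of all 35116 promoters, the TATA motif TATAAA in 10.7% and the PEA3 (ETS) motif AGGATG in 12.1%, and the motifs do not overlap one another in sequence. The TATA motif was found in MMP10 alone, 31 bases upstream of the start, and the AP-1 and PEA3 letters in none of the 4 windows. Only these exact letters were searched, so variant AP-1, ETS or TATA sites were not covered and their absence is not shown.

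**Figure D1:**
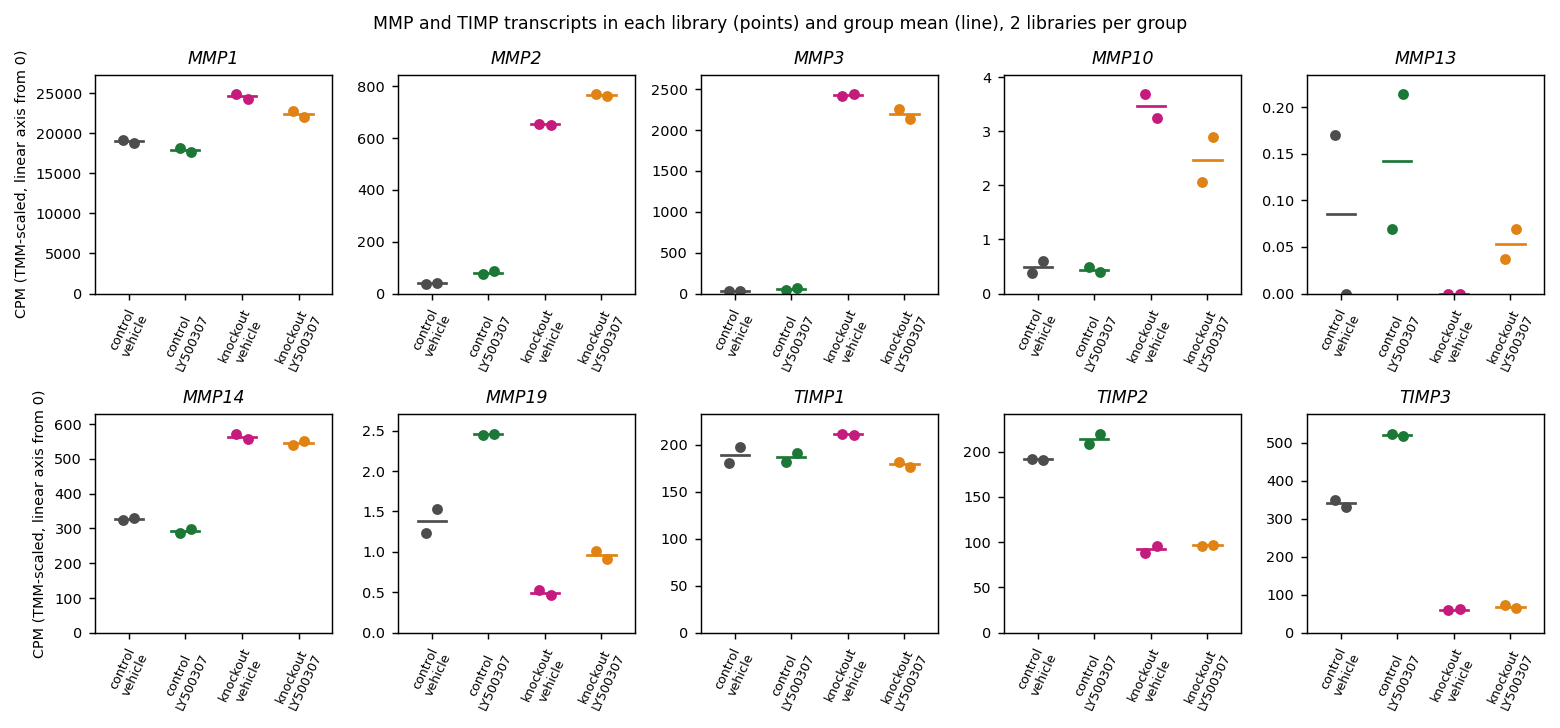
Level of each of the 10 genes in CPM (vertical axes, linear and starting at 0, each with its own scale) in the 4 groups, with 1 point per library and a line at the group mean. MMP2 and MMP3 stand far higher in both knockout groups, TIMP2 and TIMP3 far lower, and MMP13 is close to 0 everywhere.

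Among the collagenases, MMP1 had more counts than any other gene in all 8 libraries, without regard to length, and MMP13 was almost absent. MMP1 (chromosome 11, 102660132 to 102668891 on hg19) encodes interstitial collagenase, which cuts fibrillar collagens. Vehicle-treated control libraries held 19184.5 and 18775.7 CPM and vehicle-treated knockout libraries 24834.7 and 24323.3 CPM. With LY500307 the control libraries held 18112.5 and 17631.4 CPM and the knockout libraries 22783 and 21964.7 CPM. Every knockout library lay above every control library, but the difference was small beside that of other members, with a log2 fold change of 0.37 (SE 0.031) with vehicle and 0.32 (SE 0.031) with LY500307. The level per length in vehicle-treated control cells was 6932 ± 106 CPM per kb (SD, n = 2), more than that of the 9 other members together. Because of MMP1, the 10 genes took 1.92% to 2.87% of all gene counts. MMP13 (chromosome 11, 102813724 to 102826461), another collagenase, had 4 and 0 counts in vehicle-treated control libraries and 2 and 6 in control libraries with LY500307. It had 0 and 0 counts in vehicle-treated knockout libraries and 1 and 2 with LY500307. A count of 0 over both vehicle-treated knockout libraries allows up to 0.0549 CPM (3 counts, counting error only), so no difference was detectable at this depth.

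MMP2, gelatinase A, which degrades denatured collagen and collagen of basement membranes, was a minor transcript in control cells and a major one in knockout cells. The gene lies on chromosome 16 from 55423612 to 55540603. Its level with vehicle was 38.6 and 41.2 CPM in the control libraries, against 653 and 652 CPM in the knockout libraries. With LY500307 the values were 74.1 and 85.9 CPM in control and 768 and 760 CPM in knockout libraries. No library of one cell population came near the other. Knockout cells held 16.3 times the control level with vehicle and 9.56 times with LY500307, or log2 fold changes of 4.03 (SE 0.058) and 3.26 (SE 0.053).

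The stromelysin MMP3 showed the widest gap between the cell populations of the 9 tested members. MMP3 (chromosome 11, 102706532 to 102714340) cuts proteoglycans and can activate the precursor of MMP1. With vehicle the control libraries held 30.9 and 35.0 CPM, against 2421.9 and 2435.3 CPM in the knockout libraries. The values with LY500307 were 47.2 and 66.6 CPM in control and 2262 and 2139 CPM in knockout libraries. The ratio of means was 73.7 with vehicle and 38.7 with LY500307, or log2 fold changes of 6.20 (SE 0.084) and 5.27 (SE 0.078). Per kilobase, MMP3 ranked 6 of 10 in vehicle-treated control cells, with 17.8 ± 1.57 CPM per kb, and ranked next to MMP1 in knockout cells, with 1310 ± 5.10 CPM per kb (SD, n = 2 each).

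MMP10, the second stromelysin and the nearest relative of MMP3, was higher in knockout cells too but at a very low level. The gene lies on chromosome 11 from 102641233 to 102651359. Its counts were 9 and 14 in vehicle-treated control libraries and 91 and 97 in vehicle-treated knockout libraries, or 0.384, 0.597, 3.68 and 3.24 CPM. With LY500307 the counts were 14 and 11 in control and 55 and 83 in knockout libraries, or 0.489, 0.392, 2.06 and 2.90 CPM. All 4 knockout libraries lay above all 4 control libraries. The log2 fold changes were 2.80 (SE 0.32) with vehicle and 2.48 (SE 0.33) with LY500307, with errors several times those of MMP2 and MMP3. The genes share sequence, since 59 of the 1710 windows of 50 bases in the MMP10 transcript, or 3.45%, occur unchanged in another gene, and 193 windows, or 11.3%, lie within 2 mismatches of MMP3. MMP10 is therefore uncertain in knockout cells, where there were 0.152 and 0.133 MMP10 counts per 100 MMP3 counts with vehicle and 0.0911 and 0.135 with LY500307. In control cells there were 1.24 and 1.71 per 100 with vehicle and 1.04 and 0.589 with LY500307.

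MMP14 encodes the membrane-anchored protease that cuts collagen at the cell surface and, with TIMP2, activates the precursor of MMP2. The gene lies on chromosome 14 from 23305769 to 23318250. Its level was 325 and 331 CPM in vehicle-treated control libraries and 572 and 557 CPM in vehicle-treated knockout libraries. With LY500307 it was 286 and 300 CPM in control and 539 and 550 CPM in knockout libraries. The groups did not overlap, and the log2 fold changes were 0.78 (SE 0.042) with vehicle and 0.90 (SE 0.042) with LY500307. Of the arms that hold members, 14q had the highest median over its tested genes, 0.30 with vehicle and 0.32 with LY500307 over 426 genes, and relative to it MMP14 was higher by 0.48 and 0.58 on the log2 scale. Whether a difference in copies of 14q has a part in this was not tested.

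MMP19, a secreted protease found in many tissues, was the one tested metalloproteinase of the 6 that stood lower in knockout cells, and it was rare. The gene lies on chromosome 12 from 56229217 to 56236750. It had 29 and 36 counts in vehicle-treated control libraries and 13 and 14 in vehicle-treated knockout libraries, or 1.24, 1.54, 0.526 and 0.468 CPM. With LY500307 the counts were 70 and 69 in control and 27 and 26 in knockout libraries, or 2.45, 2.46, 1.01 and 0.908 CPM. Under each treatment both knockout libraries lay below both control libraries, with log2 fold changes of -1.48 (SE 0.36) and -1.35 (SE 0.28). Of the exon bases of MMP19, 17.6% overlap the pseudogene TMEM198B on the opposite strand, and MMP1 shares 8.15% with WTAPP1. On the same strand MMP2 shares 3.70% of its exon bases with an unnamed locus and TIMP2 3.61% with CEP295NL. These partners are not listed in the count tables, and the sources used here do not say whether strand was used in counting, so reads of such pairs cannot be told apart.

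Of the inhibitors, TIMP3 and TIMP2 stood lower in knockout cells, while TIMP1 lay between 177 and 212 CPM in all 8 libraries. TIMP1 (chromosome X, 47441807 to 47446188), a soluble inhibitor that acts weakly on membrane-anchored metalloproteinases, had 181 and 197 CPM in control and 212 and 211 CPM in knockout libraries with vehicle. With LY500307 its level was 182 and 192 CPM in control and 181 and 177 CPM in knockout libraries. Both knockout libraries lay above both control libraries with vehicle and below them with LY500307. With vehicle the log2 fold change was 0.16 (SE 0.049), and it was 0.10 without control vehicle replicate 1 and 0.08 relative to the median of its arm, Xp. With LY500307 it was -0.06 (SE 0.049).

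TIMP2 (chromosome 17, 76849059 to 76921469), which both inhibits metalloproteinases and takes part in the activation of MMP2 by MMP14, had 192 and 191 CPM in control and 88.2 and 95.9 CPM in knockout libraries with vehicle. With LY500307 the control libraries held 209 and 220 CPM and the knockout libraries 95.4 and 97.3 CPM. No knockout library reached a control library. The log2 fold changes were -1.05 (SE 0.052) and -1.15 (SE 0.052), and relative to the median of 17q they were -0.87 and -0.96.

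TIMP3 (chromosome 22, 33197691 to 33259028), the matrix-bound inhibitor that also blocks ADAM proteases, had the largest deficit of the 3 in knockout cells. Its level was 350 and 332 CPM in vehicle-treated control libraries and 60.0 and 62.5 CPM in vehicle-treated knockout libraries. With LY500307 its level was 523 and 518 CPM in control and 71.9 and 65.6 CPM in knockout libraries. Control cells thus held 5.57 times the knockout level with vehicle and 7.57 times with LY500307, or log2 fold changes of -2.48 (SE 0.052) and -2.92 (SE 0.052).

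Counted together for knockout against control with vehicle, 6 of the 9 tested members were called higher and 3 lower by edgeR's quasi-likelihood test at an adjusted p of 0.05 over all genes. With LY500307 5 were called higher, 3 lower and TIMP1 neither. Of all 13498 genes, 30.7% were called higher and 33.3% lower with vehicle, and 32.6% higher and 33.6% lower with LY500307. The members were chosen with these contrasts known, so the counts are a description and nothing is read from them. The knockout comparisons under each treatment use different libraries.

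**Figure D2:**
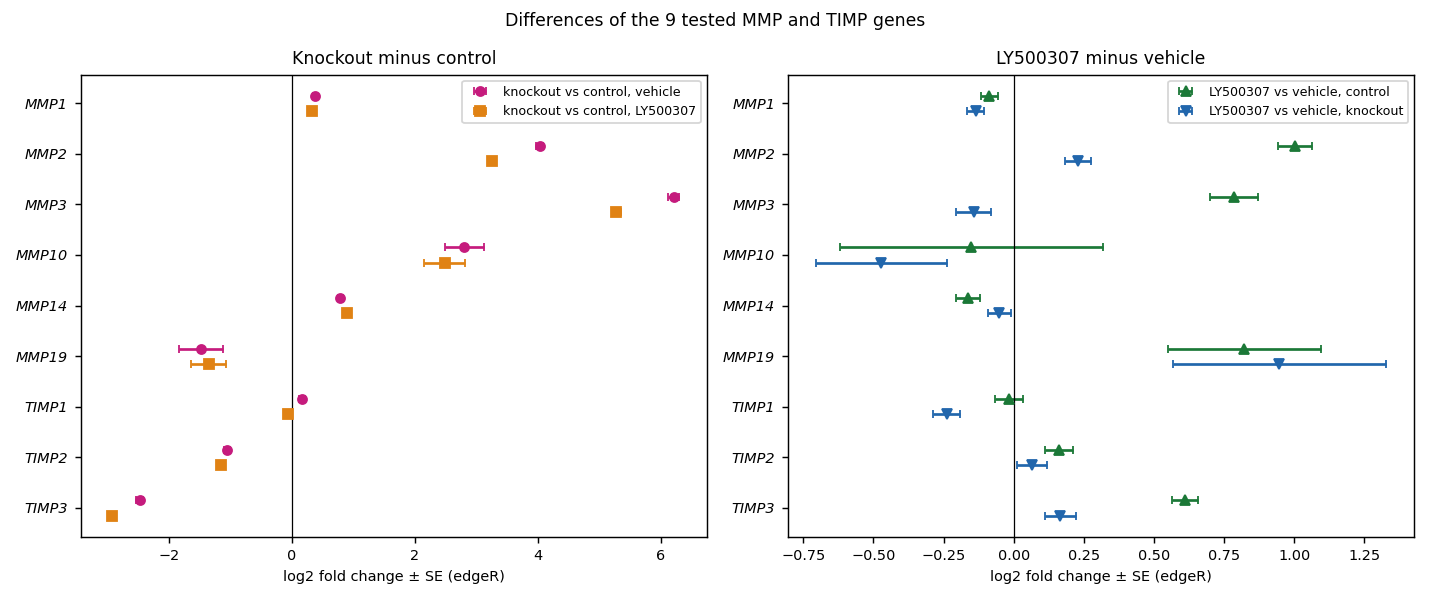
Log2 fold changes with SE (horizontal axes, edgeR) of the 9 tested members, knockout minus control on the left and LY500307 minus vehicle on the right, with 1 marker shape per comparison. MMP2 and MMP3 have the largest differences between the cell populations. On this log2 scale LY500307 moves MMP2, MMP3 and TIMP3 further in control than in knockout cells.

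The order of the members by level per length differed between the cell populations. In vehicle-treated control cells MMP1 was followed by TIMP1 at 131 ± 8.19, TIMP3 at 74.2 ± 2.83, MMP14 at 70.9 ± 0.902, TIMP2 at 30.8 ± 0.196, MMP3, MMP2 at 8.48 ± 0.389, MMP19 at 0.297 ± 0.0453, MMP10 at 0.279 ± 0.0859 and MMP13 at 0.0301 ± 0.0426 CPM per kb. TIMP3 and MMP14 were close there and changed places when the longest transcript served as length, and MMP19 and MMP10 lay within their spread. In vehicle-treated knockout cells MMP1 and MMP3 were followed by TIMP1 at 146 ± 0.422, MMP2 at 139 ± 0.153, MMP14 at 122 ± 2.43, TIMP2 at 14.8 ± 0.883, TIMP3 at 13.3 ± 0.388, MMP10 at 1.97 ± 0.177, MMP19 at 0.106 ± 0.00878 and MMP13 at 0 CPM per kb. TIMP3, ranked 3 of 10 in control cells, was thus ranked 7 of 10 in knockout cells, and MMP2 had passed MMP14 and both TIMP2 and TIMP3. With LY500307 TIMP3 came close to TIMP1 in control cells, at 113 ± 0.900 against 129 ± 4.74 CPM per kb. In knockout cells with LY500307 MMP2 stood above TIMP1, at 162 ± 1.19 against 124 ± 2.31 CPM per kb.

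Summed per length, transcripts of the metalloproteinases exceeded those of the inhibitors in every library, chiefly through MMP1. The 7 metalloproteinases over the 3 inhibitors gave 30.6 and 29.1 in vehicle-treated control libraries and 61.3 and 59.8 in vehicle-treated knockout libraries. With LY500307 the ratio was 24.6 and 23.4 in control and 62.8 and 62.2 in knockout libraries. Without MMP1 the ratio lay below 1 in all control libraries, at 0.412 and 0.417 with vehicle and at 0.380 and 0.427 with LY500307. Without MMP1 it was 9.05 and 9.01 in knockout libraries with vehicle and 9.60 and 9.45 with LY500307. There MMP3 was most of the metalloproteinase sum, at 1306 of 1571 and 1314 of 1574 CPM per kb in the vehicle-treated knockout libraries. The make-up of the inhibitors differed too. TIMP3 made up 32.8% and 30.2% of the inhibitor sum in vehicle-treated control cells, 41.7% and 40.1% in control cells with LY500307, 7.51% and 7.78% in vehicle-treated knockout cells and 10.0% and 9.39% in knockout cells with LY500307. TIMP1 made up 53.8% and 57.0% in vehicle-treated control cells and 84.3% and 83.4% in vehicle-treated knockout cells. These sums are ratios of RNA, not of active protein.

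**Figure D3:**
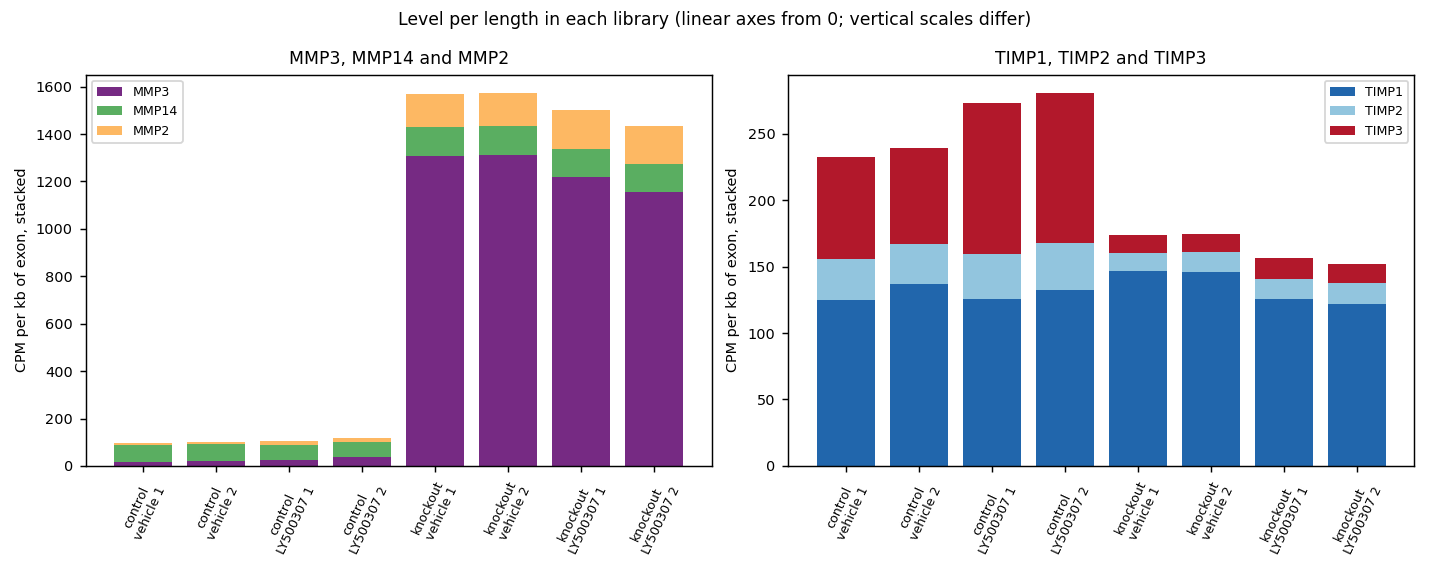
Stacked level per length (CPM per kb of exon, linear axes from 0) in each of the 8 libraries for MMP3, MMP14 and MMP2 on the left and for TIMP1, TIMP2 and TIMP3 on the right. MMP1 is left out for scale. MMP3 fills most of the bars of knockout libraries, and the TIMP3 section shrinks while TIMP1 stays at a like height.

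The response to LY500307 was then compared with vehicle within each cell population. These tests reuse the counts known when the members were chosen and are not independent evidence. A lack of overlap between 2 and 2 libraries adds little to them. With LY500307 in knockout cells 4 of the 10 members had both libraries above vehicle and 5 had both below, though 2 and 2 were called. All p-values here come from the quasi-likelihood test of edgeR, adjusted over all genes by Benjamini-Hochberg. In control cells MMP2 rose by 1.00 on the log2 scale (SE 0.060, adjusted p = 1.877e-14), that is 2.00 times the vehicle level and higher in 2 of 2 libraries than in either vehicle library. MMP3 rose by 0.79 (SE 0.086, adjusted p = 2.896e-08), with both libraries above both vehicle libraries but unequal, and by 0.52 without control LY500307 replicate 2. TIMP3 rose by 0.61 (SE 0.046, adjusted p = 7.997e-12), again without overlap. MMP2, MMP3 and the inhibitor TIMP3 thus rose in the same control cells.

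The other calls in control cells were less firm. MMP19 had a log2 fold change of 0.82 (adjusted p = 0.0239), TIMP2 0.16 (adjusted p = 0.0156), MMP14 -0.16 (adjusted p = 0.00441) and MMP1 -0.09 (adjusted p = 0.0332), each by edgeR's test and without overlap between the groups. Leaving out any 1 of the 4 libraries compared ended the MMP1 call. Its adjusted p was 0.247 or 0.0843 when control vehicle replicate 1 or 2 was left out, and 0.0785 or 0.261 for LY500307 replicate 1 or 2. The MMP19 call ended in the same 4 cases, with an adjusted p of 0.168, 0.0513, 0.0882 and 0.0942 in that order. That of MMP14 was lost without control vehicle replicate 2 (0.0532) or control LY500307 replicate 1 (0.0969). That of TIMP2 was lost without control vehicle replicate 1 (0.0637) or 2 (0.0903) or control LY500307 replicate 2 (0.189). With library totals in place of TMM the changes of MMP1 and MMP14 were -0.01 and -0.09, and neither was called. Over all alternatives the adjusted p ranged from 0.00109 to 0.756 for MMP1, from 0.0133 to 0.168 for MMP19, from 0.000426 to 0.108 for MMP14 and from 0.000660 to 0.189 for TIMP2. MMP10 (-0.15, SE 0.47, adjusted p = 0.848) and TIMP1 (-0.02, SE 0.050, adjusted p = 0.832) were not called, and their libraries overlapped. In all, 5 of 9 members were called higher and 2 lower, against 12.3% and 14.0% of all genes. With library totals the split over all genes moved from 1665 higher and 1885 lower to 2831 higher and 1011 lower.

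In knockout cells MMP2, MMP1, TIMP1 and TIMP3 were called with LY500307, each with a change of at most 0.24 on the log2 scale. MMP2 rose by 0.23 (SE 0.047, adjusted p = 0.000512 by edgeR), and TIMP1 fell by 0.24 on the log2 scale (SE 0.049, adjusted p = 0.000543), each without overlap. MMP1 fell by 0.14 (SE 0.031, adjusted p = 0.00137), and with library totals by 0.08 (adjusted p = 0.0578, range over alternatives 6.845e-07 to 0.0578). TIMP3 had a log2 fold change of 0.17 (SE 0.055, adjusted p = 0.0276). That call was lost without knockout vehicle replicate 1 (0.179) or 2 (0.0610) or knockout LY500307 replicate 1 (0.304, log2 fold change 0.10), or with only the libraries compared in the fit (0.0844), and ranged from 0.00243 to 0.304. MMP3 stood at -0.14 (SE 0.062, adjusted p = 0.103), both treated libraries below both vehicle libraries, and passed the threshold in 5 of the alternatives (range 0.000839 to 0.634). MMP10 (-0.47, SE 0.23, adjusted p = 0.152), MMP14 (-0.05, SE 0.042, adjusted p = 0.419), MMP19 (0.95, SE 0.38, adjusted p = 0.0736) and TIMP2 (0.06, SE 0.053, adjusted p = 0.424) were not called. So 2 of 9 were called higher and 2 lower, against 9.16% and 11.3% of all genes. With library totals the split over all genes moved from 1237 higher and 1522 lower to 2287 higher and 954 lower.

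The difference between these responses was tested as the interaction, the LY500307 effect in knockout cells minus that in control cells. It was negative and passed the threshold for MMP3 (-0.93, SE 0.11, edgeR adjusted p = 8.232e-07), MMP2 (-0.77, SE 0.076, adjusted p = 2.952e-08) and TIMP3 (-0.44, SE 0.072, adjusted p = 0.000313). MMP2, MMP3 and TIMP3 kept these calls in every alternative run, with adjusted p of at most 3.917e-06, 0.0297 and 0.00664. Among all genes 1.09% were called more negative and 0.526% more positive. The interaction reuses the counts known when the members were chosen, so these calls are not independent evidence. The other 6 tested members were not called by edgeR, with TIMP1 nearest at -0.22 (SE 0.070, adjusted p = 0.100). TIMP1 passed with the filter on low counts removed (0.0495) or with a replicate block (0.0193), in a range from 0.0193 to 0.422. A missed threshold does not show that MMP1 (-0.05, SE 0.043), MMP14 (0.11, SE 0.060), TIMP2 (-0.10, SE 0.073), MMP10 (-0.32, SE 0.53) or MMP19 (0.13, SE 0.46) responded alike. On the linear scale MMP2 went from 39.9 ± 1.83 to 80.0 ± 8.38 CPM in control cells and from 652 ± 0.721 to 764 ± 5.59 CPM in knockout cells (SD, n = 2 each). MMP3 went from 33.0 to 56.9 CPM in control and from 2428.6 to 2200.5 CPM in knockout cells. TIMP3 went from 341 to 520 CPM in control and from 61.2 to 68.8 CPM in knockout cells. In CPM the changes of MMP2 and MMP3 were thus larger in knockout cells, and that of TIMP3 in control cells.

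MMP10, MMP1, MMP3 and MMP13 belong to a cluster of 9 metalloproteinase genes on 11q22, between 102391239 and 102826461 on chromosome 11. The other 5 are MMP7, MMP20, MMP27, MMP8 and MMP12. MMP1, MMP3, MMP10 and MMP12 were tested, and these 4 were called higher in knockout cells under both treatments, as were 30.7% of all genes with vehicle and 32.6% with LY500307. MMP1, MMP3 and MMP10 were chosen with these contrasts known. MMP12, macrophage elastase, had 6 counts over both vehicle-treated control libraries, 23 in vehicle-treated knockout, 31 in control with LY500307 and 72 in knockout with LY500307. MMP7, MMP20 and MMP27 had at most 5 counts in a group, and MMP8 had 4, 10, 5 and 16 in the same order. The genes of the cluster thus differed by a log2 fold change of 0.37 for MMP1 up to 6.20 for MMP3 with vehicle. Of 12 other listed genes with any part within 1 Mb of the cluster, 10 were tested. With vehicle 3 were called higher and 2 lower (median 0.01), and with LY500307 3 higher and 1 lower (median -0.01). The medians over all genes were -0.01 and -0.01, and 33.3% and 33.6% of all genes were called lower. BIRC3, an inhibitor of apoptosis, had 8.36 ± 0.306 CPM in control and 26.2 ± 1.95 CPM in knockout cells with vehicle (SD, n = 2), a log2 fold change of 1.65 (SE 0.10). BIRC2, its neighbour, had 0.53 (SE 0.044), KIAA1377 0.73 (SE 0.086), YAP1, the Hippo pathway coactivator, -0.24 (SE 0.041) and TRPC6 -0.57 (SE 0.22). The genes next to the cluster on each side, TMEM123 at -0.06 and DCUN1D5 at -0.01, were not called. The median of 482 tested genes on 11q was -0.04 with vehicle and -0.03 with LY500307.

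**Figure D4:**
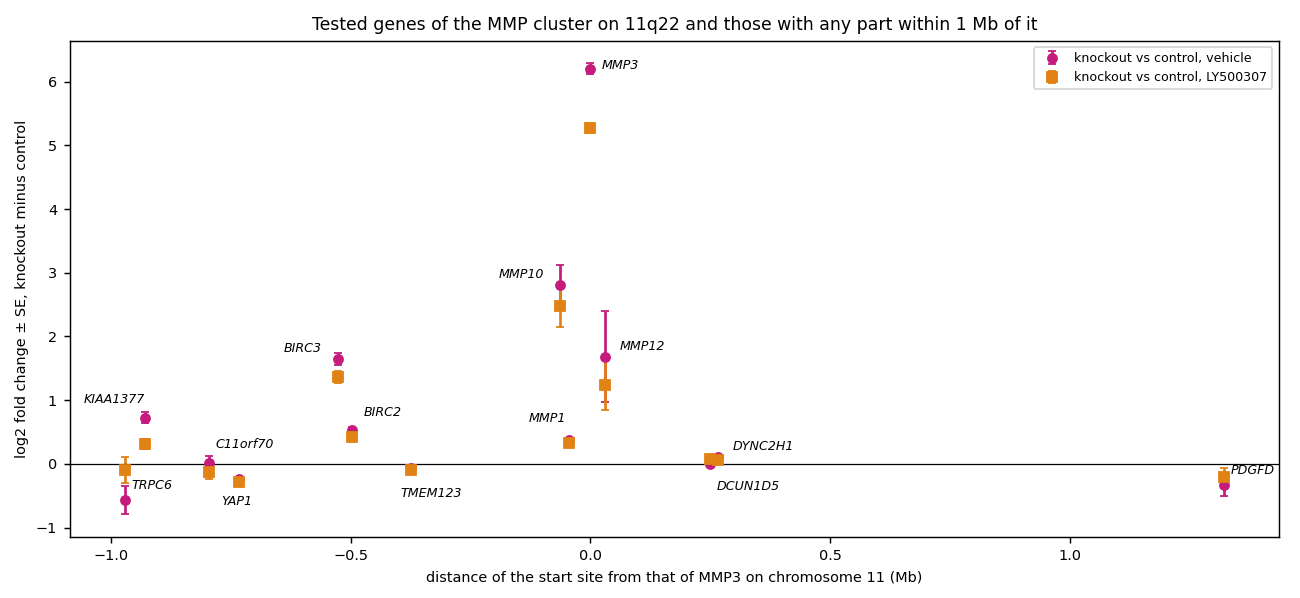
Log2 fold change with SE, knockout minus control (vertical axis), against the distance of each start site from that of MMP3 in Mb (horizontal axis), for the tested genes of the 11q22 cluster and those with any part within 1 Mb, with circles for vehicle and squares for LY500307. MMP3 stands at 6.20 and 5.27, while TMEM123 and DCUN1D5 on either side lie near 0.

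The remaining metalloproteinase and TIMP genes were mostly low. Of 17, 7 were tested, and with vehicle 2 were called higher in knockout cells and 3 lower (median log2 fold change -0.42, beside -0.01 over all genes). With LY500307 2 were higher and 2 lower (median -0.28). Over all genes, 30.7% were called higher and 33.3% lower with vehicle, and 32.6% and 33.6% with LY500307. For LY500307 against vehicle these shares were 12.3% and 14.0% in control cells and 9.16% and 11.3% in knockout cells. MMP15, a second membrane-anchored form, had 0.384 CPM in control and 1.79 CPM in knockout cells with vehicle (log2 fold change 2.22, SE 0.39). MMP16, another membrane-anchored form, stood at 29.1 and 21.8 CPM (log2 fold change -0.42, SE 0.084). With LY500307 2 genes were called higher in control cells, MMP11 (1.15, SE 0.42) and MMP12 (2.06, SE 0.68). In knockout cells 3 were called higher, MMP12 (1.62, SE 0.43), MMP15 (1.07, SE 0.25) and MMP25 (3.41, SE 0.88), and 0 were called lower in either population. Counts were few. Summed over both libraries, MMP25 had 2 with vehicle and 24 with LY500307 in knockout cells, and MMP11 had 26 and 70 in control cells. The median log2 fold changes of the 7 with LY500307 were 0.81 in control and 0.87 in knockout cells, beside 0.01 and 0.01 over all genes. The interaction called 0 of the 7. MMP9, the other gelatinase, had 1 count in the 8 libraries, and TIMP4 had 0, which allows up to 0.0549 CPM (3 counts) in the vehicle-treated knockout group.

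Genes whose products bind, activate or restrain metalloproteinases formed a list of 18, of which 12 were tested. With vehicle 4 were called higher in knockout cells and 7 lower (median -0.32), and with LY500307 3 higher and 8 lower (median -0.32). Over all genes, 30.7% were called higher and 33.3% lower with vehicle, and 32.6% and 33.6% with LY500307. For LY500307 against vehicle these shares were 12.3% and 14.0% in control cells and 9.16% and 11.3% in knockout cells. CAV1, the caveolae protein, had 1870.5 CPM in control and 643 CPM in knockout cells with vehicle (log2 fold change -1.54, SE 0.039). SDC1, a cell-surface proteoglycan, stood at -0.99 (SE 0.045). Higher were FURIN, the convertase that activates MMP14, at 0.72 (SE 0.063), and BSG, an inducer of metalloproteinases, at 0.52 (SE 0.042). RECK, a membrane-anchored inhibitor, stood at 6.39 CPM in control and 5.00 CPM in knockout cells with vehicle and was not called, and with LY500307 it was called lower, at 7.43 and 5.35 CPM (log2 fold change -0.48, SE 0.16). LY500307 raised 2 and lowered 4 of the 12 in control cells (median 0.05), among them SDC1 (-0.41, SE 0.044), and raised 1 and lowered 6 in knockout cells (median -0.17), among them CAV1 (-0.31, SE 0.038). The interaction was negative for LRP1, a clearance receptor of metalloproteinases (-0.55, SE 0.11), positive for 0 genes, and had a median of -0.06.

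The ADAM and ADAMTS proteases, relatives of the metalloproteinases, formed a list of 30, of which TIMP3 can inhibit some. Of the 23 tested, 3 were called higher, 13 lower and 7 neither in knockout cells with vehicle (median -0.45), and 2 higher and 16 lower with LY500307 (median -0.63). Of all genes tested, 30.7% were called higher and 33.3% lower with vehicle, and 32.6% and 33.6% with LY500307. For LY500307 against vehicle these shares were 12.3% and 14.0% in control cells and 9.16% and 11.3% in knockout cells. ADAM9 had 431 CPM in control and 264 CPM in knockout cells with vehicle (log2 fold change -0.71, SE 0.045), ADAM12 at -0.92 (SE 0.061) and ADAMTS12 at -1.14 (SE 0.087), while ADAMTS6 was higher by 1.24 (SE 0.053). LY500307 raised 5 and lowered 3 in control cells (median 0.14), among them ADAMTS1, which fell by 0.35 (SE 0.041). In knockout cells it raised 3 and lowered 6 (median 0.02), among them ADAM15, which fell by 0.42 (SE 0.053). The interaction was positive for ADAMTS1 (0.33, SE 0.058) and ADAMTS5 (1.12, SE 0.25), with a median of -0.14 and 0 genes negative.

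AP-1, ETS and RUNX genes, listed here together with CEBPB, encode transcription factors known to bind metalloproteinase promoters. Of 19 on the list 17 were tested. In knockout cells 10 were called higher and 5 lower with vehicle (median 0.22), and 11 higher and 5 lower with LY500307 (median 0.25). Over all genes, 30.7% were called higher and 33.3% lower with vehicle, and 32.6% and 33.6% with LY500307. For LY500307 against vehicle these shares were 12.3% and 14.0% in control cells and 9.16% and 11.3% in knockout cells. FOS had 3.13 CPM in control and 8.21 CPM in knockout cells with vehicle (log2 fold change 1.39, SE 0.15). FOSB, JUNB, JUND and ATF3 were called higher too. The more abundant FOSL1, at 625 and 610 CPM, and FOSL2, at 145 and 140 CPM, were not called. JUN was called lower with vehicle, at 399 and 367 CPM (-0.12, SE 0.046), and higher with LY500307 (0.25, SE 0.046). With vehicle CEBPB stood at 42.9 and 75.6 CPM (0.82, SE 0.064) and RUNX1 at 116 and 193 CPM (0.74, SE 0.054), while ETV5 was lower (-0.50, SE 0.052). LY500307 called 3 higher and 2 lower in control cells (median 0.03), among them FOSB (0.61, SE 0.13) and JUN (-0.35, SE 0.047). It called 4 higher and 2 lower in knockout cells (median 0.04), among them FOSB (1.02, SE 0.099) and FOS (0.81, SE 0.12). The interaction was positive for JUN (0.37, SE 0.066) and negative for ETV1 (-0.36, SE 0.079), with a median of 0.00.

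Summed markers of other cell types moved with the cell populations, mostly through single genes, and their part in the differences above was not tested. The summed fibroblast markers, of which COL1A1 made up most, lay at 1269 to 1324 CPM in control and 260 to 263 CPM in knockout libraries with vehicle, and at 1166 to 1226 and 175 to 196 CPM with LY500307. Of the fibroblast genes, COL3A1 reached at most 0.0349 CPM and DCN at most 0.107 CPM in any library. With vehicle 2 of 5 tested fibroblast genes were called higher and 3 lower, beside 30.7% and 33.3% of all genes. Of these, FAP stood at 8.53 CPM in control and 25.7 CPM in knockout cells, and LUM at 0.0426 and 1.48 CPM. PDGFRA went the other way, at 64.9 and 12.9 CPM, as did PDGFRB and COL1A1. The endothelial sum, mainly CDH5, lay at 103 to 105 and 32.9 to 32.9 CPM with vehicle and at 83.1 to 88.6 and 26.7 to 31.8 CPM with LY500307, while CLDN5 was at 0 in all libraries and PECAM1 reached at most 0.175 CPM (1 of 3 tested called higher, 1 lower). The haematopoietic sum, mainly CD68, lay at 97.1 to 101 and 63.9 to 64.6 CPM with vehicle and at 112 to 113 and 63.3 to 76.2 CPM with LY500307, while CD3E was at 0 and PTPRC reached at most 0.105 CPM (1 of 3 higher, 1 lower). The epithelial sum lay at 616 to 619 and 540 to 548 CPM with vehicle and at 727 to 738 and 513 to 518 CPM with LY500307 (3 of 7 higher, 3 lower with vehicle).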

How the data were processed

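RNA from 8 libraries of ES2 cells was sequenced by the authors as 50-base single-end reads, per the labels' protocols, where a kit for stranded mRNA and a guide for total RNA both appear. Per the submitters' processing notes, the authors used bcl2fastq, then TopHat2 2.0.8b on hg19, then HTSeq, and deposited unnormalised read counts, 1 whole number for each gene symbol. The series text says that raw reads were combined, yet each library has its own count file and duplicates differ. Summary entries of the counter were removed. Reads outside genes made up 10.7% to 12.8% and ambiguous reads 0.811% to 0.861%. Sample columns left unused numbered 0.

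Samples were grouped by their labels. From the deposited counts, CPM and log2 fold changes were computed in R 4.3.3 with edgeR 4.0.16 (limma 3.58.1), with TMM scaling and filterByExpr. Of 23228 genes 5520 had no count and 13498 were tested. One quasi-likelihood model with a mean per group was fitted to all 8 libraries (4 residual degrees of freedom, prior 30.1, biological coefficient of variation 3.95%). The 5 comparisons were tested with glmQLFTest, two-sided, with Benjamini-Hochberg adjustment over all tested genes at 0.05. For members no p-value is printed in the knockout comparisons, which their choice used. Calls of members there rest on the same test and are a description only. The members and lists were chosen with earlier results of these data known. From each list the genes with the smallest p among those called at 1 CPM or more were named, at most 4 per comparison, else the 2 most abundant. RECK, MMP9, TIMP4 and list genes below 1 CPM were named outside that rule, after their values were seen. TRPC6, TMEM123 and DCUN1D5 were also named outside it, as were the AP-1 genes other than FOS for knockout against control. Alternatives were DESeq2 size factors, library totals, no filter, DESeq2 1.42.0, a replicate block, only the libraries compared, and leaving out each library. The procedure was tested on simulated data.

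Positions, exon lengths and overlaps come from GENCODE release 44 lifted to GRCh37 (19137 genes matched by symbol, 2175 by older symbol, 1916 unmatched) and can differ from the annotation used for counting. Promoters come from RefSeq. Floors of 3 counts cover counting error only, since the sources used here name no molecular identifiers.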

Additional observations from a re-analysis of the deposited data

Results flagged for a closer look

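The effect of LY500307 differed between control and knockout cells for 3 of the 9 tested genes, by edgeR's test of the difference itself (the interaction, Benjamini-Hochberg adjustment over all genes). The log2 fold change with LY500307 in knockout cells minus that in control cells was -0.77 for MMP2, -0.93 for MMP3 and -0.44 for TIMP3. In CPM, by contrast, the changes of MMP2 and MMP3 were larger in knockout cells. The genes were chosen with these counts known, so the test is not independent evidence. With 2 libraries per group, no group was large enough for a test of single outlying libraries.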

How the results depend on the processing

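For knockout against control, the 9 tested members kept their direction under all alternatives. The members were chosen with this contrast known and the alternatives refit the same counts, so this describes the processing and is not independent evidence. The TIMP1 difference with vehicle missed the threshold without control vehicle replicate 1. Leaving out 1 library gave 7595 to 8762 genes called with vehicle, 7887 to 8932 with LY500307, 2161 to 3791 for LY500307 in control cells, 1413 to 2737 for LY500307 in knockout cells and 93 to 256 for the interaction, against 8637, 8934, 3550, 2759 and 218. When a group was left with 1 library, that library was assumed to vary like the other groups. The interaction count was 350 without the filter on low counts and 643 with a replicate block. The labels give duplicates only a number, and deviations of same-numbered libraries correlated at 0.0409 to 0.110. The block gave 8990, 9295, 4271 and 3540 calls for the other comparisons. For LY500307 in control cells 17 alternative values of members fell below the threshold, and in knockout cells 5 fell below it and 6 passed it. DESeq2 did not call MMP1 (adjusted p = 0.0865) or MMP19 (0.120) in control cells. A fit of only the libraries compared could not be made for the interaction. The cause of these changes was not tested. The depth limits MMP10, MMP13 and MMP19, with at most 188, 8 and 139 counts in a group.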
